A study of Zea mays with 15 samples.

Results

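CesA10, CesA11, CesA12 and brittle stalk2 (bk2) are 4 maize genes of the thickened secondary cell wall, among the 39145 genes of the deposited table. The members were taken by identifier: GRMZM2G445905 (CesA10), GRMZM2G037413 (CesA11), GRMZM2G142898 (CesA12) and GRMZM2G109326 (bk2), with the total reads of all transcript models of an identifier added up. RNA came from leaf 4 of the inbred line B73, sampled 3 days after it emerged from plants grown outdoors under plastic filters. Control plants received 0.35 W/m2 of UV-B and UV-B plants 1.5 W/m2, both with 8 W/m2 of UV-A at noon. The basal part of the blade was divided into 10-mm segments, called zone 1 (0 to 1 cm from the base), zone 2 (1 to 2 cm) and zone 3 (2 to 3 cm). Each library therefore held all cell types of a segment, and in such bulk RNA fewer cells of a type and less RNA per cell cannot be told apart.

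Cellulose is spun into the wall by rosette complexes of cellulose synthase (CesA) subunits in the plasma membrane. One set of CesA proteins serves the thin primary wall of growing cells, and another set serves the secondary wall that xylem vessels and sclerenchyma fibres lay down once they stop expanding. CesA10, CesA11 and CesA12 are the maize subunits assigned to the secondary wall set. Brittle stalk2 encodes a COBRA-like protein anchored at the cell surface, and maize plants without it have stalks and leaves that snap easily because secondary walls hold less cellulose. In a grass leaf, cells divide at the base, elongate above it and differentiate towards the tip, so distance from the base orders cells by age.

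The usable libraries numbered 3, 2 and 3 in control zones 1 to 3 and 1, 3 and 2 in the matching UV-B zones. These 14 libraries held 1673416 to 19221143 reads. UV-B zone 3 replicate 1 held almost no reads, 0 of them from a member, and was left out. The labels call the libraries biological replicates, and their titles carry a number shared between zones of a treatment. What that number stands for is not stated. The main tests do not use it, so their p-values measure the spread between these samples. Summed over 3 markers of dividing cells, control libraries gave 249 to 268 CPM (counts-per-million, the reads of a gene scaled to the library total) in zone 1 and 22.7 to 35.4 CPM in zone 3. Summed over 3 chloroplast genes, they gave at most 39.9 CPM in zone 1 and 735 to 1027 CPM in zone 3.

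For 2 of the 4 identifiers, the gene name and the deposited rows do not match in a simple way. GRMZM2G445905 lies on chromosome 1 and has 3 transcript models in the table, whose genome build is not given in the sources used here. T01 (234316245 to 234321904, 5 exons, 1087 bases) and T02 (234316299 to 234321940, 5 exons, 976 bases) cover only the low-coordinate end of the locus. T03 (234316405 to 234326747, 13 exons, 4397 bases) runs on for another 4807 bases. RefSeq lists this identifier under a pair of neighbouring genes, csu1007(eif4F), which lies on the low-coordinate side as T01 and T02 do, and cesa10. T01 held a median of 73.4% of the identifier's reads over the 14 libraries, T02 17.1% and T03 11.2%. The sum over the identifier is therefore called GRMZM2G445905 here, and the reads unique to T03, the model that reaches past T01 and T02, are given beside it.

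The CesA11 rows have a near-identical partner. RefSeq lists GRMZM2G037413 (chromosome 2, T01 from 29981033 to 29986917) and GRMZM2G055795 (chromosome 3, T01 from 198438730 to 198444359) under a single cesa11 gene. Both identifiers have a T02 model of 750 bases and a T03 model of 3036 bases, and no read was unique to these models in either. Of all reads, 24.8% of those of GRMZM2G037413 and 26.3% of those of GRMZM2G055795 were unique to 1 model. Reads could thus be split between the identifiers, so the level of either alone is uncertain and their sum is also given. CesA12 (chromosome 7, 117546196 to 117550877) and bk2 (chromosome 9, 123497639 to 123499951) each matched 1 RefSeq gene. Their models overlap, and none of the 100 bk2 reads was unique to a model.

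**Figure D1:**
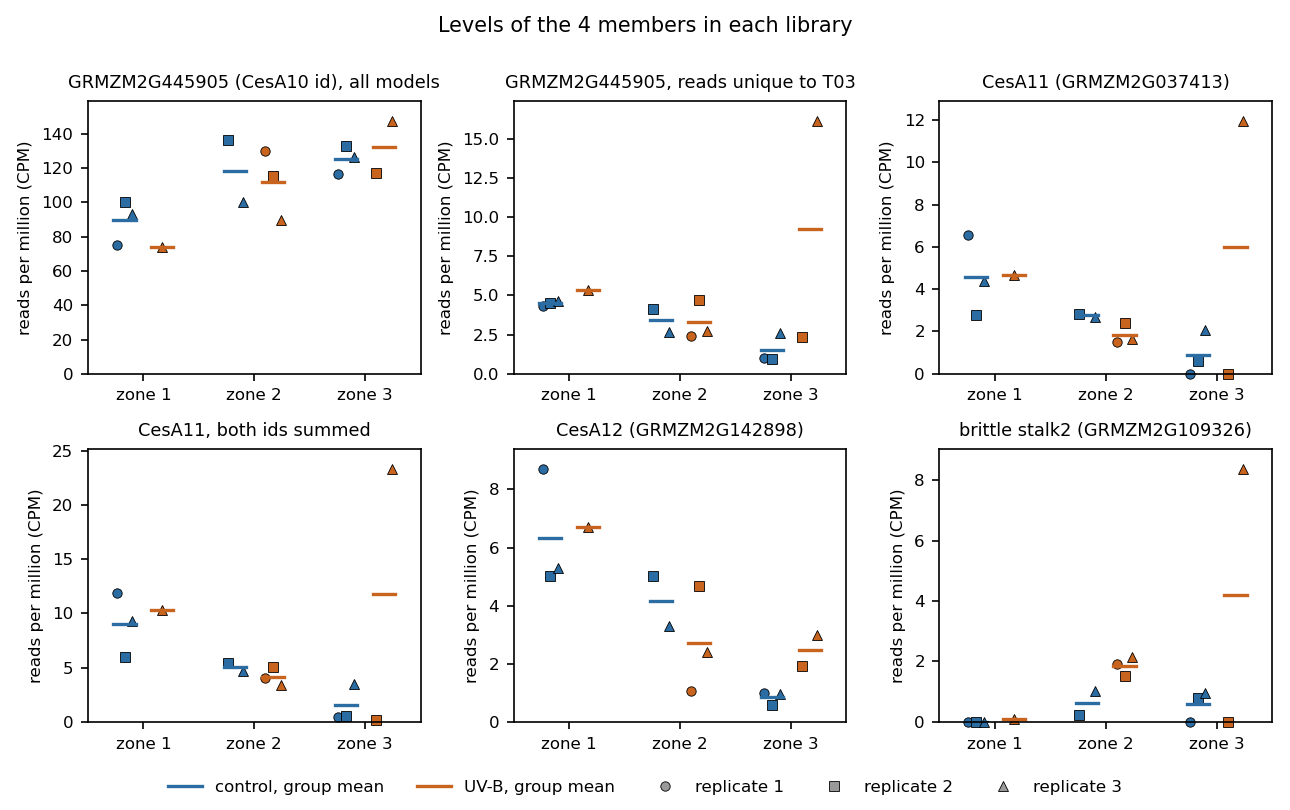
CPM in each of the 14 libraries for the 4 members, for reads unique to model T03 and for both CesA11 identifiers summed, by zone and treatment; points are libraries (shape gives the replicate number) and bars are group means. CesA12 sits between 5.02 and 8.70 CPM in control zone 1 and below 1 CPM in control zone 3, bk2 has 0 reads in control zone 1, and UV-B zone 3 replicate 3 is the highest point for GRMZM2G445905, T03, CesA11 and bk2.

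CesA12, a catalytic subunit, fell along the control leaf. In control zone 1 its libraries held 8.70, 5.02 and 5.31 CPM, in zone 2 5.03 and 3.32 CPM, and in zone 3 0.996, 0.584 and 0.964 CPM. Every zone 3 library was below every library of the other zones, while zones 1 and 2 overlapped. The means were 6.34 ± 2.05 CPM (SD, n = 3), 4.18 ± 1.21 CPM (n = 2) and 0.848 ± 0.229 CPM (n = 3). The zone 3 values rest on 2, 3 and 6 reads, and their exact 95% binomial intervals reach from 0.120 to 3.60 CPM. Such intervals cover counting error only. By the edgeR quasi-likelihood test with Benjamini-Hochberg adjustment, CesA12 fell by 2.82 on the log2 scale from zone 1 to zone 3 (SE 0.58, adjusted p = 0.00173). It fell by 2.28 from zone 2 to zone 3 (SE 0.63, adjusted p = 0.0343). That second call ended when any 1 of the 5 libraries compared was left out (edgeR adjusted p from 0.0740 to 0.105) and with limma-voom (0.0990).

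Brittle stalk2, the COBRA-like protein, was not detected at the base at this depth and was low further up. No read fell on bk2 in the 3 control zone 1 libraries, which held 43205710 reads together and so allow up to 0.0694 CPM (3 reads). In control zone 2 the libraries had 1 and 8 reads (0.219 and 1.02 CPM), and in zone 3 0, 4 and 6 reads (0, 0.779 and 0.964 CPM). The zone 3 replicate without a read overlaps zone 1, but its depth allows up to 1.49 CPM. Against the 3-read limit over control zone 1, mean bk2 was at least 8.92-fold higher in zone 2 (0.620 ± 0.567 CPM, SD, n = 2) and at least 8.37-fold higher in zone 3 (0.581 ± 0.512 CPM, n = 3). These limits allow for counting error in zone 1 only and take the zone 2 and zone 3 means as observed. The limits moved to 3.15-fold without zone 2 replicate 3, 14.7-fold without zone 2 replicate 2, and 5.61-fold to 12.6-fold on leaving out a zone 3 library. The edgeR test called the rise from zone 1 to zone 3 (adjusted p = 0.0251). It was lost on leaving out replicate 2 (0.0573) or 3 (0.0541) of control zone 1, or replicate 2 (0.0571) or 3 (0.0797) of control zone 3. From zone 1 to zone 2 the adjusted edgeR p was 0.104, and between zones 2 and 3 the log2 change was 0.08 ± 1.42 (SE, adjusted p = 0.979).

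CesA11, another catalytic subunit, had lower means further from the base, but the difference did not pass the test. Control zone 1 held 6.55, 2.79 and 4.39 CPM, zone 2 held 2.85 and 2.68 CPM, and zone 3 held 0, 0.584 and 2.09 CPM. The zone 3 libraries were all below those of zones 1 and 2, and zones 1 and 2 overlapped. The edgeR log2 change from zone 1 to zone 3 was -2.0 ± 1.05 (SE, adjusted p = 0.130). On leaving out a library this change ranged from -3.41 to -1.63 (edgeR adjusted p up to 0.288), and over the other settings from -2.17 to -0.47. It passed in fits that left out UV-B zone 3 replicate 2 (adjusted p = 0.0186) or 3 (0.0269), neither of which is in the contrast, and in a fit of the compared groups alone (0.0372). With both identifiers summed, the means were 9.05 ± 2.95 CPM (SD, n = 3), 5.10 ± 0.532 CPM (n = 2) and 1.54 ± 1.73 CPM (n = 3). The log2 change of that sum from zone 1 to zone 3 was -2.28 ± 0.98 (SE, edgeR adjusted p = 0.0677). It passed in 3 of the 14 fits that left out a library. These lacked control zone 3 replicate 3 (0.0340) or UV-B zone 3 replicate 2 or 3. Over the 14 fits the edgeR adjusted p reached 0.194.

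The change of the GRMZM2G445905 sum from zone 1 to zone 3 had the opposite sign to that of its T03 unique reads. Over all models, control zone 1 held 75.0, 100.5 and 93.1 CPM, zone 2 136.6 and 100.0 CPM, and zone 3 116.6, 132.8 and 126.8 CPM. All zone 3 libraries were above those of zone 1, and zone 2 overlapped both. The sum rose by 0.58 on the log2 scale from zone 1 to zone 3 (SE 0.22, edgeR adjusted p = 0.0474). This call sat at the threshold and ended in 8 of the 14 fits that left out a library (adjusted p up to 0.153). It also ended with DESeq2 size factors (0.0546), with no filter (0.0715) and with the nearly empty UV-B library included (0.0947). Among the 8 were fits without a control zone 1 or control zone 3 library. Reads unique to T03 gave 4.31, 4.52 and 4.67 CPM in control zone 1, 4.16 and 2.68 CPM in zone 2, and 0.996, 0.974 and 2.57 CPM in zone 3. Here every zone 3 library was below every zone 1 and zone 2 library. Total reads of T03 did not separate the zones in this way. They gave 9.96, 15.5 and 10.8 CPM in control zone 1, 20.6 and 7.02 CPM in zone 2, and 4.98, 4.87 and 12.9 CPM in zone 3. The log2 change of the T03 unique reads from zone 1 to zone 3 was -1.38 ± 0.62 (SE), with an edgeR adjusted p of 0.0797. On leaving out a library this change ranged from -2.09 to -1.11 (edgeR adjusted p up to 0.227). It passed when control zone 3 replicate 3 was left out (0.0472), and in fits lacking UV-B zone 3 replicate 2 (0.0172) or 3 (0.0291).

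**Figure D2:**
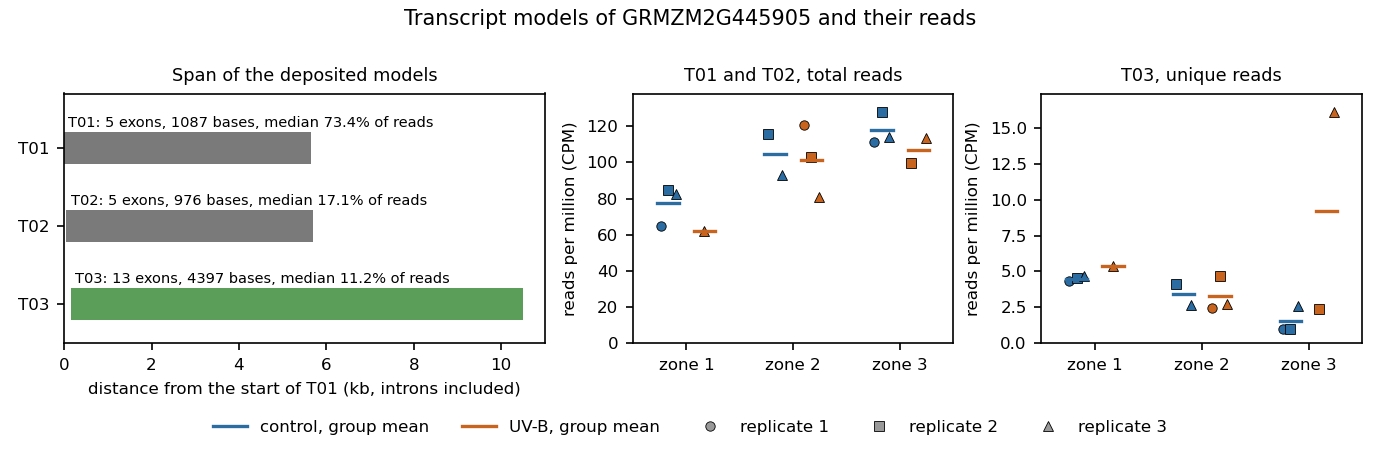
Left, the span of the 3 deposited models of GRMZM2G445905 as distance from the start of T01, with exon number, length and median share of reads; middle and right, CPM of T01 and T02 together and of reads unique to T03, by zone and treatment, with points for libraries and bars for group means. T01 and T02 hold 73.4% and 17.1% of the reads and have their lowest means in zone 1, while the T03 reads of control leaves are lowest in zone 3.

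Among the 4 members, 3 were called between control zones 3 and 1, GRMZM2G445905 and bk2 higher and CesA12 lower. In this comparison 51.3% of the 23899 genes tested were called, 25.6% higher and 25.7% lower. Between control zones 3 and 2, 1 member (CesA12) was called, against 13.3% of all genes. Between control zones 2 and 1, no member was called by edgeR, against 8.33% of all genes. At an unadjusted p under 0.05 the edgeR count was 1 (bk2). In the same comparison DESeq2 called 1 member, bk2 (adjusted p = 0.0293), and limma-voom 0. All 4 members passed the filter on low counts over the 14 libraries. With the compared control zones alone bk2 did not pass it, so its control tests rest on a filter that also read the UV-B libraries.

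The members did not share a single profile. In control leaves, the zone 2 mean was 94.3% of the zone 3 mean for GRMZM2G445905, 107% for bk2, 309.9% for CesA11 and 492% for CesA12. Leaving out 1 control library moved these shares to between 79.7% and 108.9%, 37.7% and 175.6%, 206.6% and 945.5%, and 391.0% and 593.5%, in the same order, so those of bk2 and CesA11 rest on single libraries. The highest CesA11 share was without zone 3 replicate 3, and the lowest and highest bk2 shares were without zone 2 replicates 3 and 2. In UV-B leaves the same shares were 84.5%, 44.4%, 30.8% and 110.5%, and those of bk2 and CesA11 rest on zone 3 replicate 3, since replicate 2 had 0 reads of either. Over the 14 libraries, log2(CPM + 1) of CesA11 and CesA12 had a Pearson r of 0.67 and a Spearman rho of 0.79. T03 unique reads had an r of 0.87 with CesA11 and 0.62 with CesA12. GRMZM2G445905 as a whole had an r of 0.96 with its T01 and T02 reads and -0.04 with its T03 unique reads. Brittle stalk2 had an r of -0.26 with CesA12 and 0.37 with CesA11. These libraries share zones and treatments and differ in depth, and several points rest on under 10 reads, so the coefficients are descriptions.

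**Figure D3:**
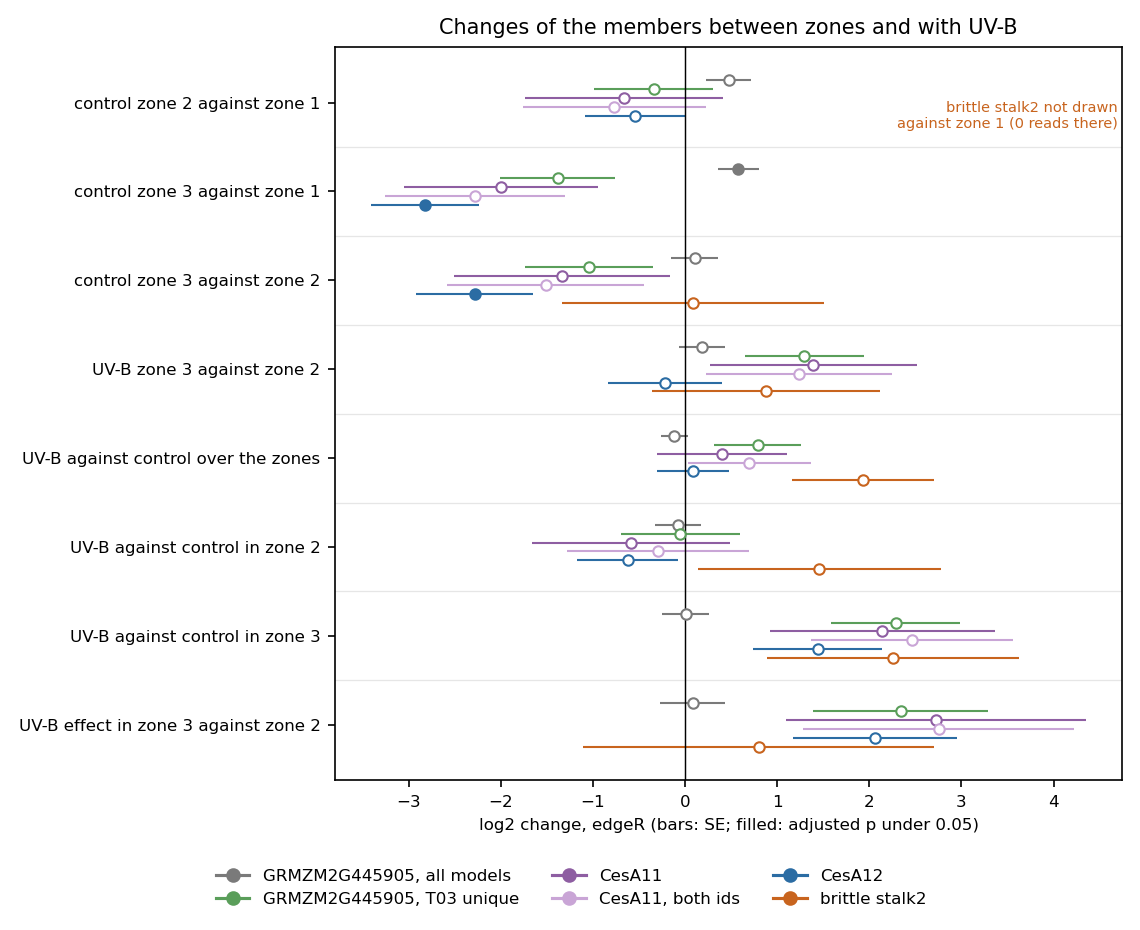
Log2 changes by edgeR with their SE for the members, T03 unique reads and both CesA11 identifiers in 8 comparisons; filled points have an adjusted p under 0.05, and bk2 is not drawn against zone 1, where control libraries had 0 reads. CesA12 is filled in control zone 3 against zone 1 (-2.82) and against zone 2 (-2.28), GRMZM2G445905 in control zone 3 against zone 1 (0.58), and no point is filled for UV-B against control.

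Per length, CesA11 and CesA12 lay below 9 of the other 11 CesA identifiers in control zone 1 and below 10 of them in zone 3. CPM per kb, the CPM of each model over its length added up per gene, was 1.81 ± 0.590 (SD, n = 3) for CesA12 and 1.42 ± 0.671 for CesA11 in control zone 1, with overlapping libraries. In control zone 3 CesA11 (0.262 ± 0.318), bk2 (0.271 ± 0.238) and CesA12 (0.238 ± 0.0647) overlapped as well. The other 11 CesA identifiers, labelled CesA1 to CesA9 and CesA13, are mostly genes of the primary wall set. In control zone 1 they had means from 0.212 (GRMZM2G150404, listed under CesA9) to 57.9 CPM per kb (CesA3). In zone 3 they ranged from 0.0341 (CesA13) to 130.6 CPM per kb (CesA6). CesA13 (0.301 CPM per kb) and GRMZM2G150404 were below CesA11 and CesA12 in zone 1, and CesA13 was below them in zone 3. The GRMZM2G445905 sum, most of it reads of the short T01 and T02 models, had 62.6 to 82.7 CPM per kb in control zone 1 and 105.9 to 122.4 in zone 3. The T03 model, by total reads, had 2.75 ± 0.683 and 1.72 ± 1.04. Only 33.7% of its total reads were unique to it, so this level can hold reads of the part shared with T01 and T02.

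**Figure D4:**
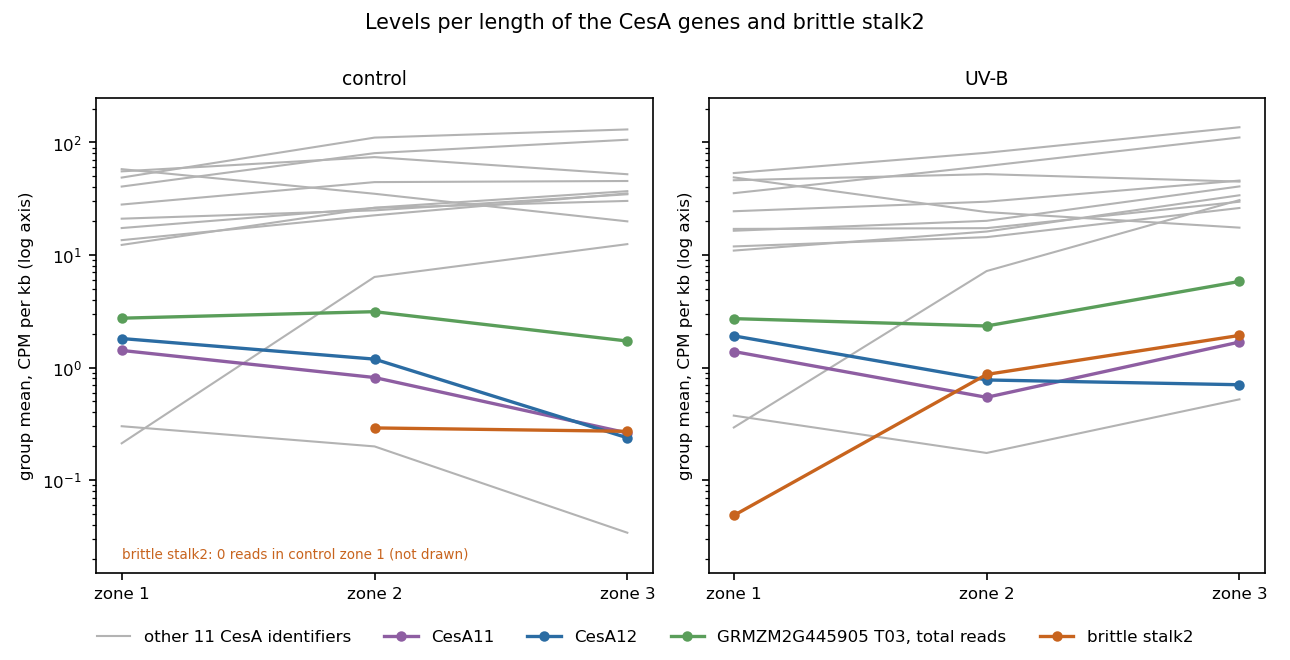
Group means of CPM per kb on a log axis, by zone, for the other 11 CesA identifiers (grey) and for CesA11, CesA12, bk2 and total reads of model T03, in control leaves (left) and UV-B leaves (right). In control leaves CesA12 goes from 1.81 in zone 1 to 0.238 in zone 3, while CesA6, the highest grey line in zone 3, reaches 130.6. Of the total reads of T03, 33.7% were unique to that model.

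Under UV-B, CesA12 was highest in the single zone 1 library, and its zone 3 libraries did not fall to the control minimum. Its edgeR log2 change from UV-B zone 1 to zone 3 was -1.37 ± 0.74 (SE) and was not called. The UV-B zone 1 library held 6.71 CPM, zone 2 held 1.06, 4.68 and 2.41 CPM, and zone 3 held 1.93 and 2.99 CPM. Zones 2 and 3 overlapped, and both zone 3 values lay above the 3 control zone 3 values. They rest on 9 and 5 reads, against 2, 3 and 6 in control zone 3. Their exact 95% binomial intervals (0.882 to 3.66 and 0.970 to 6.97 CPM) overlap those of each control zone 3 library. CesA12 had a log2 change of 1.44 ± 0.70 (SE) for UV-B against control in zone 3 (edgeR unadjusted p = 0.0629, adjusted p = 1.00). The log2 change from UV-B zone 2 to zone 3 was -0.22 ± 0.62 (SE, edgeR adjusted p = 0.855). Without UV-B zone 3 replicate 3, the UV-B change in zone 3 was 1.26. The test of whether the UV-B effect differed between zones 3 and 2 gave a log2 difference of 2.06 ± 0.89 for CesA12 (edgeR unadjusted p = 0.0386, adjusted p = 1.00), which did not pass.

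Brittle stalk2 had more reads in UV-B than in control libraries of zone 2. UV-B zone 2 held 18, 21 and 26 reads (1.90, 1.51 and 2.16 CPM), all above the control values of 0.219 and 1.02 CPM. The UV-B zone 1 library had 2 reads (0.104 CPM), and UV-B zone 3 had 0 reads in replicate 2 and 14 reads (8.37 CPM) in replicate 3, on both sides of the control range. Over the zones, the edgeR log2 change of bk2 for UV-B against control was 1.93 ± 0.77 (SE) with an unadjusted p of 0.0243 and an adjusted p of 0.552. Without UV-B zone 3 replicate 3 that change was 0.88 (adjusted p = 0.786). In zone 2 alone the log2 change was 1.46 ± 1.32 (SE, edgeR adjusted p = 0.924).

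For CesA11 and the T03 reads, the UV-B libraries of zone 3 lay far apart. CesA11 held 4.68 CPM in UV-B zone 1 and 1.48, 2.38 and 1.66 CPM in UV-B zone 2. In UV-B zone 3 it held 0 CPM in replicate 2 and 12.0 CPM (20 reads) in replicate 3, and the latter is above every control library. T03 unique reads gave 5.36 CPM in UV-B zone 1, 2.43, 4.68 and 2.74 CPM in zone 2, and 2.36 and 16.1 CPM in zone 3 replicates 2 and 3. For UV-B against control in zone 3, the T03 unique reads had a log2 change of 2.29 ± 0.70 (SE, edgeR unadjusted p = 0.00652, adjusted p = 1.00). Without UV-B zone 3 replicate 3 it was 0.60. GRMZM2G445905 as a whole held 73.8 CPM in UV-B zone 1, 130.1, 115.5 and 89.9 CPM in zone 2, and 117.0 and 147.6 CPM in zone 3. Zones 2 and 3 overlapped. Its log2 change for UV-B over the zones was -0.12 ± 0.15 (SE, edgeR adjusted p = 0.828).

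The UV-B zone 3 libraries differed from each other by more than counting error for GRMZM2G445905, CesA11, bk2 and T03 unique reads. For GRMZM2G445905 the exact 95% binomial interval was 107.4 to 127.3 CPM in replicate 2 and 129.8 to 167.2 CPM in replicate 3. The exact 95% binomial interval of CesA11 was 0 to 0.791 CPM in replicate 2 and 7.30 to 18.5 CPM in replicate 3. For bk2 the intervals were 0 to 0.791 CPM and from 4.57 CPM upwards, and for T03 unique reads 1.18 to 4.22 and 10.6 to 23.5 CPM. CesA12 did not separate the libraries (0.882 to 3.66 and 0.970 to 6.97 CPM). Replicate 3 is the shallowest of the 14 libraries (1673416 reads, against 4665312 in replicate 2). It also had higher CPM of the wall regulators MYB61 (146.4 against 27.2 CPM) and Myb20 (74.1 against 29.8 CPM). The sugar transporter genes sut1, sut2 and sut4 summed to 181.7 CPM in replicate 3 and 80.8 CPM in replicate 2, and the other 11 CesA identifiers to 2522 and 1555 CPM. In control zone 3 the transporter sum was 84.5 to 146.4 CPM (mean 107.7, most of it sut2 and sut4). UV-B zone 2 replicate 3 was also highest in its group for the transporter sum (129.2 CPM, against 50.0 and 60.8). The same held for the other CesA identifiers (1898 CPM, against 963 and 1023), but not for the dividing-cell or chloroplast sums. In UV-B zone 3 replicates 3 and 2, the dividing-cell markers summed to 21.5 and 28.9 CPM and the chloroplast genes to 1118 and 997 CPM. With replicate 3 left out, the fitted UV-B change in zone 3 turned negative for CesA11 (-6.49, against 2.14 ± 1.22, SE, with it) and bk2 (-5.87, against 2.26 ± 1.37), all with an edgeR adjusted p of 1.00. The negative values rest on a single library with 0 reads and are no measure of size. The part of depth and of these markers in the difference was not tested.

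No member was called for UV-B against control over the zones, where 0.0293% of genes were called. The same held within zone 1 (0.00418% of genes), where UV-B is a single library assumed to vary like the other groups, and within zone 2 (0%) and zone 3 (0.00418%), and for the difference of the UV-B effect between zones 3 and 2 (0%). At an unadjusted p under 0.05 the edgeR counts of members were 1 over the zones (bk2), 0 in each zone and 1 for the difference (CesA12), and DESeq2 and limma-voom called 0 in each. From UV-B zone 2 to zone 3 no member was called, against 6.85% of genes, with 0 at an unadjusted edgeR p under 0.05 and 0 by DESeq2 and limma-voom. From UV-B zone 1, a single library, to zone 3 no member was called in the main fit either, against 26.9% of genes. There 2 members had an unadjusted edgeR p under 0.05 (GRMZM2G445905 and bk2), DESeq2 called 2 members and limma-voom 0. With the replicate number as a block, described at the end, edgeR called GRMZM2G445905 (log2 change 0.85) and bk2 (5.34) higher and CesA12 (-1.84) lower. The share of all genes called with that block is not given here. CesA11 was called lower (edgeR adjusted p = 0.0305) when replicate 3 of UV-B zone 3 was dropped, which leaves a library with 0 CesA11 reads.

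Other genes of the pathway were described from lists matched by name, 42 genes that could be tested. Between control zones 3 and 1, 6 of the other 11 CesA identifiers were higher and 1 lower, with a median log2 change of 0.89 against -0.02 over all genes. Over all genes tested, 25.6% were higher and 25.7% lower in this comparison, which is the background for the count of every list. CesA2 rose from 159 ± 47.5 to 415 ± 73.5 CPM (SD, n = 3 each, edgeR adjusted p = 0.00636). CesA4 rose from 49.8 ± 14.5 to 149.7 ± 37.2 CPM (adjusted p = 0.00635), and CesA3 fell from 188 ± 29.1 to 72.0 ± 8.02 CPM (adjusted p = 0.000237). Among COBRA-like genes and the chitinase-like brittle stalk4 (bk4), 4 of 7 could be tested, 3 of them higher and 1 lower, with a median of 1.80. The chitinase-like bk4 rose from 24.4 ± 3.76 to 107.9 ± 20.1 CPM (edgeR adjusted p = 9.5e-06), and the COBRA-like genes Bk2L3 (adjusted p = 1.5e-05) and Bk2L4 (7.7e-05) rose with it.

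Of 22 genes of lignin synthesis, 13 could be tested and 6 were higher and 2 lower in control zone 3 than in zone 1, with a median log2 change of 0.36. That is 8 of 13 called, against 51.3% of all genes. Lignin fills secondary walls after cellulose is laid down. Among its enzymes, pal3 (phenylalanine ammonia-lyase) rose from 155 ± 22.1 to 477 ± 78.7 CPM (SD, n = 3 each, edgeR adjusted p = 5.8e-05). The methyltransferase gene ccoaomt1 rose from 63.4 ± 5.44 to 254 ± 28.4 CPM and comt from 55.2 ± 11.9 to 219.6 ± 19.3 CPM (edgeR adjusted p = 4.0e-06 and 6.0e-05). Of 7 regulators, 5 could be tested and 3 were higher, none lower. Their median was 2.39, also with MYB61 and Myb20 at their lower bounds. MYB61 and Myb20, named after Arabidopsis factors that switch on secondary wall genes, had 0 reads in control zone 1. In zone 3 MYB61 held 70.2, 53.4 and 74.1 CPM and Myb20 26.4, 29.2 and 43.2 CPM. Against 3 reads over control zone 1, that is at least 949-fold and 475-fold higher (edgeR adjusted p = 0.000480 and 1.7e-05). One of the ANAC076 identifiers (GRMZM2G440219), named after an Arabidopsis factor of xylem vessels, rose from 0.463 ± 0.0276 to 2.43 ± 0.977 CPM (adjusted p = 0.0156).

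**Figure D5:**
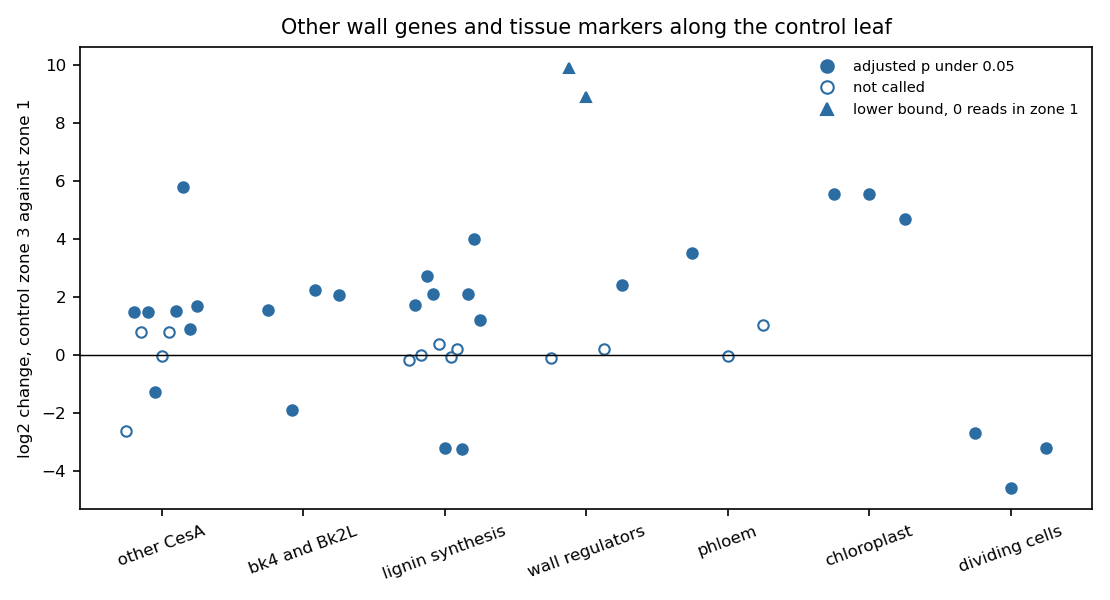
Log2 changes from control zone 1 to control zone 3 of the tested genes of each list, by edgeR; filled points have an adjusted p under 0.05, and triangles are lower bounds for genes with 0 reads in zone 1. MYB61 and Myb20 lie highest, at bounds of 9.89 and 8.89, the 3 chloroplast genes lie between 4.68 and 5.54, and the 3 markers of dividing cells lie between -4.60 and -2.70.

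Of the sugar transporter genes in the phloem list, sut1 rose from 0.335 ± 0.103 to 3.77 ± 1.46 CPM (edgeR adjusted p = 0.000703), while sut2 and sut4 were not called. For UV-B against control, edgeR, DESeq2 and limma-voom called none of the 42 list genes over the zones, in zone 1, in zone 2, in zone 3 or for the difference between zones 3 and 2. At an unadjusted edgeR p under 0.05 there were 3, 0, 0, 2 and 0. No name in the reference table matched the lists for xylan synthesis and for xylem cell death, and these were not analysed here.

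The genes most like the mean standardised log2(CPM + 1) of the 4 members over the 14 libraries had a Pearson r from 0.79 to 0.89 in the 50 highest. That mean joins members that did not move together, since GRMZM2G445905 and CesA12 had a Pearson r of -0.63. Likeness to it is therefore not likeness to each member. Some of the 50 genes also had few reads, such as AC212859.3_FG008 with group means from 0.0536 to 0.598 CPM. Of these 50, 4 had a RefSeq name and none was in a list. The named genes were umc2262 (GRMZM2G138097, r = 0.89), pco143001(71) (GRMZM2G178486, r = 0.83), the Mediator subunit gene MED7.2 (GRMZM2G066981, r = 0.82) and ZmCASPL2D1 (GRMZM2G318633, r = 0.82). Without UV-B zone 3 replicate 3, r in the 50 genes ranged from 0.22 to 0.75 with a median of 0.54, so the likeness rests in part on that library.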

How the data were processed

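The deposited table gives, per the file headers, total and unique transcript reads, lengths, exon numbers and RPKM for each of 62892 transcript models and each library. The authors made these read counts and RPKM values before deposit. No source used here gives the aligner or genome build. RPKM values gave none of the results reported here and served only in checks. Unique reads were taken as reads assigned to 1 model only, which no source defines. Another 21 value columns of 3 libraries matched no sample and were not used.

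Total reads were summed per gene (39145 genes) and divided by the library total for CPM. CPM per kb divided the CPM of each model by its length and added the models of a gene. The 14 usable libraries were fitted together as 6 groups in edgeR 4.0.16 (R 4.3.3) with TMM scaling, filterByExpr, the quasi-likelihood F test and Benjamini-Hochberg adjustment over 23899 genes, and calls had an adjusted p under 0.05. The fit was tested on simulated data. Alternatives were DESeq2 1.42.0, limma-voom (limma 3.58.1), DESeq2 size factors, other filters, unique reads, the compared groups alone, a replicate block, the nearly empty UV-B zone 3 replicate 1, and each library left out. Libraries held 1673416 to 19221143 reads, and low counts limit precision.

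Names came from the RefSeq gene table, which matched 18842 genes, 521 of them to more than 1 record. From each list, up to 3 called genes with the smallest adjusted p were named. The 50 genes most like the members were counted, and those with a name were given. GRMZM2G440219 and GRMZM2G150404 were named after their values were seen where they fall outside this rule. Members and lists were chosen with earlier results of these data known. T03 unique reads and the CesA11 sum were added after the data were seen.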

Additional observations from a re-analysis of the deposited data

How the results depend on the processing

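CesA12 stayed lower in control zone 3 than in zone 1 in every setting in which it was tested. It was not tested with unique reads. Most other calls changed with some setting, and the cause of these changes was not tested. The number of members called was 1 with DESeq2 for control zone 2 against zone 1, and 0 with limma-voom for control zone 3 against zone 2. With unique reads it was 0 for control zone 3 against zones 2 and 1, but only GRMZM2G445905 and CesA11 could be tested there, so those counts do not show a lost call of CesA12 or bk2. For UV-B zone 3 against zone 1 it was 1 with DESeq2 size factors, 2 with DESeq2, 3 with the replicate block, and 2 with the replicate block and the added features. Same-numbered libraries of a treatment correlated from 0.0430 to 0.660 in their deviations (9 pairs, median 0.466). Libraries of a treatment with different numbers had a median of -0.288 (18 pairs), and 12 of 13 libraries correlated best with their own number. As the lowest pair reached only 0.0430, the numbers were not taken to pair samples. The main zone tests therefore do not account for such pairing. The block turned the log2 change of CesA12 for UV-B in zone 1 to 0.10 and of the bk2 difference between zones to -0.28. For UV-B against control, the block joined libraries of the same replicate number across treatments. Those pairs correlated from -0.293 to 0.518 in their deviations (14 pairs), so that block is not known to match samples. With the compared groups alone, CesA12 for UV-B in zone 1 was 0.00184.

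With unique reads, the log2 change of GRMZM2G445905 was -0.10 for control zone 2 against zone 1, -1.21 for zone 3 against zone 2, -1.31 for zone 3 against zone 1 and 0.20 for UV-B over the zones. CesA11 was then 0.19 for control zone 3 against zone 2, 0.82 for UV-B in zone 1 and 0.78 in zone 2. With limma-voom, CesA11 was -1.42 for UV-B zone 3 against zone 2, -2.60 against zone 1, -0.15 for UV-B over the zones, 0.093 in zone 1 and -0.33 in zone 3. By the same tool bk2 was -1.59 for UV-B zone 3 against zone 2, -0.22 for UV-B in zone 3 and -1.72 for its difference from zone 2, and CesA12 was 0.070 for UV-B in zone 1. With UV-B zone 3 replicate 1, GRMZM2G445905 was -0.044 for UV-B in zone 3.

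Leaving out each library in turn gave 0 to 1 members called for control zone 2 against zone 1, 0 to 1 for zone 3 against zone 2, 1 to 4 for zone 3 against zone 1 and 0 to 1 for UV-B zone 3 against zone 1. The log2 changes of the GRMZM2G445905 sum then ranged from -0.13 to 0.38 (control zone 3 against zone 2), -0.0083 to 0.39 (UV-B zone 3 against zone 2), -0.31 to 0.20 (UV-B in zone 2), -0.060 to 0.10 (zone 3) and -0.20 to 0.32 (difference between zones). Those of CesA11 ranged from -7.24 to 2.55 (UV-B zone 3 against zone 2), -8.42 to 1.30 (against zone 1), -0.64 to 0.64 (UV-B over the zones), -0.34 to 0.28 (zone 1), -6.49 to 3.56 (zone 3) and -5.91 to 4.14 (difference). For CesA12 they were -0.56 to 0.46 (UV-B zone 3 against zone 2), -0.073 to 0.34 (UV-B over the zones) and -0.18 to 0.28 (zone 1). For bk2 they were -0.50 to 1.59 (control zone 3 against zone 2), -7.24 to 2.03 (UV-B zone 3 against zone 2), -3.10 to 6.10 (against zone 1), -5.87 to 3.45 (UV-B in zone 3) and -7.33 to 2.01 (difference).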
